A study of Homo sapiens with 14 samples.

Results

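MDM2 and 5 further genes that act on p53 were examined across all libraries of a chromatin study of p53 activation. The genes were MDM2, MDM4, PPM1D, CCNG1, RCHY1 and COP1. They were chosen by name, with earlier results of these data known. Each had 1 window in the count table, so they make up 6 of its 28159 windows. All 6 passed the filter on low counts, which left 25901 windows for testing. The assay was ChIP-seq with an antibody against RNA polymerase II (Pol II) phosphorylated at Ser5, the form of the enzyme found mainly near gene starts. The cells were wild-type HCT116, a human colorectal carcinoma line with intact p53. The Nutlin3a group (2 ChIP libraries) was electroporated without peptide and kept for 3 h in 10 µM Nutlin3a. The DMSO group (2 ChIP libraries) was handled in the same way and kept for 3 h in 0.1% DMSO. The Nutlin3a + peptide group (1 ChIP library) was electroporated with a bivalent stapled peptide at 10 µM, received a further 200 nM in the medium, and was kept in Nutlin3a. The DMSO + peptide group (1 ChIP library) received the same peptide and DMSO. Per the labels, water stood in for the peptide in the groups without it, and every group was electroporated. Each of the 4 conditions also had 2 input libraries, made from chromatin without immunoprecipitation. The study asked whether blocking the contact between p53 and the Mediator complex with the peptide changes the p53 response. The labels do not say that replicates came from separate cultures, so p-values measure the spread between these libraries, which may be technical.

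These genes form the feedback around p53. MDM2 is the main ubiquitin ligase of p53 and is itself a p53 target, so p53 raises the level of its own inhibitor. MDM4 is a relative of MDM2 that binds p53 and blocks its transactivation domain with little ligase activity of its own. RCHY1 (Pirh2) and COP1 are further ubiquitin ligases that act on p53. PPM1D (Wip1) is a phosphatase that removes activating phosphates from p53 and from its kinases, and CCNG1 (cyclin G1) recruits the phosphatase PP2A to MDM2. Nutlin3a fills the pocket of MDM2 that holds p53, which stabilises p53, and Mediator is the complex through which activators such as p53 act on Pol II. MDM2 has a pair of promoters: an upstream one that is active without p53, and one in its first intron that carries the classical p53 response elements.

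The promoters of 4 members are shown: those of MDM2 and CCNG1 hold the closest matches to the p53 consensus, that of PPM1D holds another response element, and that of COP1 serves as the contrast. Each line gives the 250 bases before an annotated start site, 5′ to 3′ on the strand of the gene, from RefSeq (GRCh38.p14). The MDM2 upstream promoter lies at chr12:68807922-68808171 (plus strand), and its capitals mark 1 CCAAT box on each strand, which overlap. The MDM2 intronic promoter lies at chr12:68808767-68809016 (plus strand), and its capitals mark both matches to the p53 response element consensus. The CCNG1 promoter lies at chr5:163437321-163437570 (plus strand), and its capitals mark the 2 blocks of a spaced match to the same consensus. The PPM1D promoter lies at chr17:60599943-60600192 (plus strand), and its capitals mark a cAMP response element. CCAAT boxes were marked in the MDM2 upstream promoter only. Those in the MDM2 intronic, CCNG1 and PPM1D promoters were left in small letters. The COP1 promoter lies at chr1:176207287-176207536 (minus strand) and has no capitals. It held neither a CCAAT box nor a cAMP response element, and its p53 matches were weak.
MDM2 upstream promoter: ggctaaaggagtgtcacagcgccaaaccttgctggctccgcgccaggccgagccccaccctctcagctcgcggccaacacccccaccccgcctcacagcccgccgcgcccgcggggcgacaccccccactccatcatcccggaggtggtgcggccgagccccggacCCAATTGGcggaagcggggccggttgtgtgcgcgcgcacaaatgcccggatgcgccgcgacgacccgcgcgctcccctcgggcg
MDM2 intronic promoter: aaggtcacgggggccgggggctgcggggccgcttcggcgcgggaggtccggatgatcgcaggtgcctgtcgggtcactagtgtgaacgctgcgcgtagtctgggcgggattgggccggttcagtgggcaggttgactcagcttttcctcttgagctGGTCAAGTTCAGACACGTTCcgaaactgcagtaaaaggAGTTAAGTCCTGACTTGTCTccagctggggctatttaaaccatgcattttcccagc
CCNG1 promoter: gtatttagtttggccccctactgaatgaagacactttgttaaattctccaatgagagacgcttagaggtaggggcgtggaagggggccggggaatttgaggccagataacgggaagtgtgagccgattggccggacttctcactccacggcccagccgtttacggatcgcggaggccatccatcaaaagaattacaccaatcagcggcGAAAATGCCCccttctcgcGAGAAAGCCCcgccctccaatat
PPM1D promoter: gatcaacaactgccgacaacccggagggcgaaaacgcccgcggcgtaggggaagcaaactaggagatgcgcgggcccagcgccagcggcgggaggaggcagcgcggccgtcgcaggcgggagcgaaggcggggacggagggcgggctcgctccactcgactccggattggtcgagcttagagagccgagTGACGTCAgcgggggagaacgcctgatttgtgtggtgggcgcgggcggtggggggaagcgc
COP1 promoter: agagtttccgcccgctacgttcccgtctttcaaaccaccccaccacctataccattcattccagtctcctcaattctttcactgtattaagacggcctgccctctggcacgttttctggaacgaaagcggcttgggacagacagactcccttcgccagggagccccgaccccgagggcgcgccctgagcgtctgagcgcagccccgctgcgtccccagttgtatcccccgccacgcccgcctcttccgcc

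The p53 consensus used in the search consists of a pair of like 10-base blocks, reads the same on both strands, and was scored by mismatches. In the MDM2 intronic promoter the element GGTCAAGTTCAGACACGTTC (chr12:68808923-68808942) had 2 mismatches and ended 75 bases before that start site. The second element, AGTTAAGTCCTGACTTGTCT (chr12:68808961-68808980), had 3 mismatches. Without a spacer between the blocks, 0.561% of 35116 RefSeq promoters of the same length held a match with at most 2 mismatches, and 4.36% held one with at most 3. The best match without a spacer had 5 mismatches in the MDM2 upstream promoter, 5 in MDM4, 4 in PPM1D, 6 in CCNG1, 5 in RCHY1 and 7 in COP1. With a spacer of up to 13 bases CCNG1 had a match with 2 mismatches, as did 6.64% of all promoters. The spaced best match of COP1 had 4 mismatches, a score that 79.3% of all promoters reached. The cAMP response element TGACGTCA was found in PPM1D alone among the members and in 1.65% of all promoters, and the CCAAT box in 32.0% of all promoters. All motifs were sought on both strands, and no member held the TATA box sequence TATAAA, which 10.7% of promoters held.

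Every window was 1000 bp long, so levels can be compared between genes per length. In hg38 the MDM2 window ran over chr12:68807872-68808871 (plus strand). It held the upstream start sites, the first of them 300 bases in, and ended before the intronic promoter's elements. The p53 elements began 52 and 90 bases beyond its end, and the intronic start sites lay 146 and 153 bases beyond it. The window therefore covers the upstream MDM2 start and the region just after it. Whether Pol II at the nearby intronic start sites also added reads to it was not tested, so the values below are not assigned to either promoter. The windows of MDM4 (chr1:204516079-204517078, plus strand) and PPM1D (chr17:60599883-60600882, plus strand) held their own start sites and overlapped no other gene's window. The CCNG1 window (chr5:163437295-163438294, plus strand) also held the start of the divergent lncRNA LOC105377700, which lies upstream on the minus strand. The COP1 window (chr1:176206945-176207944, minus strand) held the start of the divergent lncRNA COP1-DT. The RCHY1 window (chr4:75514131-75515130, minus strand) shared 998 bases with that of its divergent neighbour THAP6. ChIP counts do not separate genes that start in the same window, so the value given for RCHY1 is also that of THAP6. For the same reason CCNG1 and COP1 cannot be told apart from their divergent lncRNA partners.

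**Figure D1:**
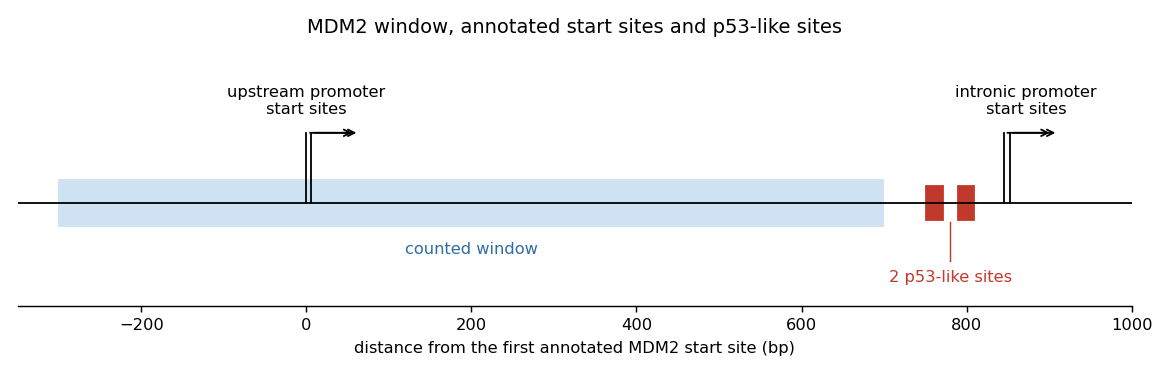
Map of the MDM2 region, with the distance from the first annotated start site in bp on the horizontal axis, the counted window as a blue bar, start sites as arrows and p53-like elements as red boxes. Both elements and the intronic start sites lie to the right of the window, the nearest element 52 bases beyond its end.

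The ChIP libraries held between 1290223 and 2240951 counts in windows, and the inputs between 161719 and 359276. Of 14 colon epithelium markers, 5 (EPCAM, KRT8, KRT18, KRT19 and CLDN4) had a mean ChIP level at least 2 times the input, against 8.69% of all tested windows, while CDH1, KRT20, CLDN3, VIL1, CDX2, CDX1, LGR5, ASCL2 and ELF3 did not. None of 6 blood, 7 mesenchyme or 7 silent tissue markers reached that ratio. Nutlin3a replicate 1 stood apart: its Spearman correlation with the other ChIP libraries across windows was 0.870 to 0.920, whereas the 4 libraries numbered replicate 2 correlated with each other at 0.961 to 0.970. Its median level at 20 markers of other tissues was 8.53 CPM (counts scaled to equal library totals), and the other 5 ranged between 3.89 and 7.32 CPM. DMSO replicate 1 correlated with the other ChIP libraries at 0.920 to 0.935. Both peptide libraries were numbered replicate 2. The part of these differences in the results below was not tested, and several values are also given without Nutlin3a replicate 1.

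MDM2 had the highest mean level of the 6 genes in every condition. Levels are CPM per window after scaling of library sizes by TMM. MDM2 was at 169 and 192 CPM in the 2 Nutlin3a libraries, against 103 and 99.7 CPM in the 2 DMSO libraries. It was at 213 CPM in the Nutlin3a + peptide library, against 122 CPM in the DMSO + peptide library. These levels stood at percentiles 98.6 and 98.8 of all windows in Nutlin3a, and at 92.1 and 92.5 in DMSO. In Nutlin3a the order of the means was MDM2, PPM1D, CCNG1, COP1, MDM4 and RCHY1. The libraries of COP1 and MDM4 overlapped there, as did those of MDM4 and RCHY1, and the other neighbours did not. In DMSO the order was MDM2, COP1, PPM1D, RCHY1, MDM4 and CCNG1, and MDM2 overlapped with COP1 and MDM4 with CCNG1. CCNG1 was thus the lowest of the 6 in DMSO and was among the upper 3 in Nutlin3a. With peptide, CCNG1 was the third highest in Nutlin3a and the lowest in DMSO.

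The ChIP signal of the members stood only moderately above the input. The mean ChIP level of MDM2 was 2.58 times its mean input level of 58.2 CPM, a ratio above that of 95.5% of windows. The other ratios were 1.73 for COP1, 1.51 for MDM4, 1.48 for RCHY1, 1.44 for CCNG1 and 1.28 for PPM1D, against a median of 0.713 over all tested windows. PPM1D thus combined the second highest Nutlin3a level with the highest input level, 82.5 CPM. The libraries were scaled to their own totals, so the ratios rank windows and do not measure occupancy. Each input library held only 3 to 36 reads in these windows. Against the mean input, CCNG1 was at 0.809 to 2.06 times the input in single ChIP libraries, and the values below 1 were those of DMSO replicate 2 and DMSO + peptide.

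**Figure D2:**
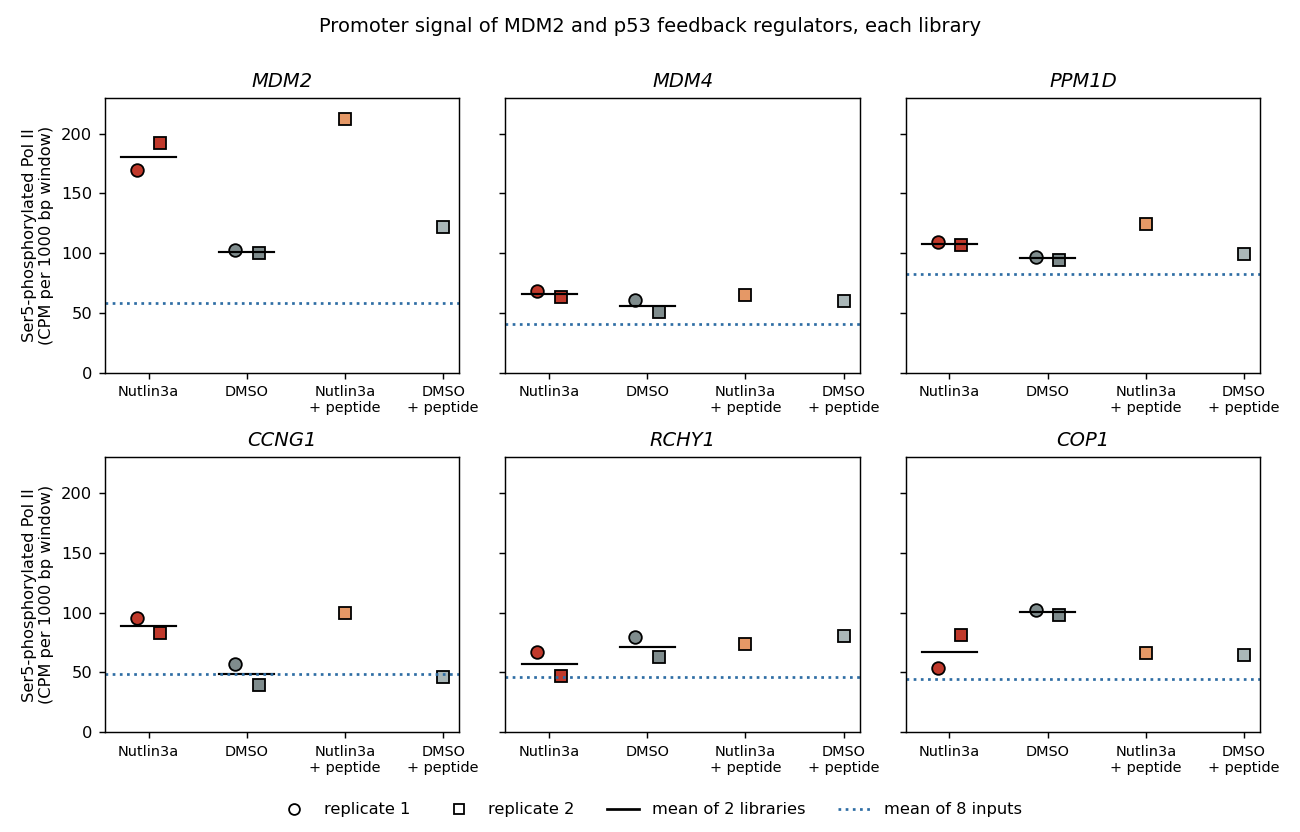
Level of Ser5-phosphorylated Pol II in the window of each gene (CPM per 1000 bp window, linear axis) in each ChIP library, with group means as bars and the mean of 8 inputs as a dotted line. MDM2, MDM4, PPM1D and CCNG1 are higher in all Nutlin3a libraries than in all DMSO libraries, by less for MDM4 and PPM1D. COP1 is at 98.1 CPM or more in DMSO without peptide and at 81.3 CPM or less elsewhere.

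The comparison of Nutlin3a with DMSO without peptide asks how the feedback genes respond to p53 stabilisation. MDM2 averaged 181 ± 16.0 CPM in Nutlin3a and 101 ± 2.25 CPM in DMSO (SD, n = 2 each). The fitted difference was 1.78-fold (95% interval 1.29 to 2.46), a log2 fold change of 0.83 ± 0.22 (SE). In edgeR's quasi-likelihood test the p was 0.00143, which ranked MDM2 at place 19 of 25901 windows, and the Benjamini-Hochberg adjusted p was 0.982. The groups did not overlap, but in this fit without a replicate block the difference did not pass the threshold of 0.05 over all windows. It passed with the replicate number as a block (adjusted p 0.0143 in edgeR), a number that no label ties to a shared culture. Without Nutlin3a replicate 1 the log2 fold change was 0.92, in a fit with 1 Nutlin3a library without peptide.

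MDM4, the relative of MDM2, was at 67.8 and 63.4 CPM in Nutlin3a, against 61.0 and 50.3 CPM in DMSO. The groups lay next to each other without overlap, and the log2 fold change of 0.23 (95% interval -0.25 to 0.72) included 0. It was 0.38 without DMSO replicate 1 and 0.11 without DMSO replicate 2. Of the other ligases, COP1 was the member furthest below its DMSO level. COP1 was at 53.3 and 81.3 CPM in Nutlin3a, against 102 and 98.1 CPM in DMSO. Both Nutlin3a libraries were below both DMSO libraries, with Nutlin3a replicate 1 the lowest. The fitted level was 0.677-fold (95% interval 0.481 to 0.952) with an unadjusted p of 0.0276 and an adjusted p of 0.982 in edgeR. The log2 fold change of COP1 was -0.56 ± 0.23 in all libraries, -0.30 without Nutlin3a replicate 1 and -0.90 without Nutlin3a replicate 2. RCHY1 was at 67.1 and 46.6 CPM in Nutlin3a, against 79.3 and 63.2 CPM in DMSO. These groups overlapped, and the log2 fold change was -0.34 (95% interval -0.85 to 0.18). It was -0.62 without Nutlin3a replicate 1, -0.074 without Nutlin3a replicate 2, and of the opposite sign, 0.24, with the authors' scaling constants in place of TMM.

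Of the members that act through phosphatases, CCNG1 had the larger difference. CCNG1 was at 95.3 and 83.1 CPM in Nutlin3a, against 57.2 and 39.6 CPM in DMSO. Every Nutlin3a library was above every DMSO library, and the fitted difference was 1.84-fold (95% interval 1.29 to 2.60). Its log2 fold change was 0.88 ± 0.24 with a p of 0.00194, place 23 of all windows, and an adjusted p of 0.982 in edgeR. With the replicate number as a block the adjusted p of CCNG1 was 0.0347 in edgeR. Without DMSO replicate 1 the log2 fold change was 1.17, and without DMSO replicate 2 it was 0.65. PPM1D was at 109 and 107 CPM in Nutlin3a, against 97.1 and 94.5 CPM in DMSO. Both groups were tight and did not overlap, yet the log2 fold change was 0.17 (95% interval -0.28 to 0.62).

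The authors' constants moved the median log2 fold change of all windows to 0.53, against 0.04 with TMM, and with them MDM2 was at 1.32, CCNG1 at 1.40, MDM4 at 0.74, PPM1D at 0.69 and COP1 at -0.16. The constant was 1.82 for Nutlin3a replicate 1 and lay between 0.595 and 0.748 for the other ChIP libraries. In the edgeR fit to all 6 ChIP libraries, which has no replicate block, none of the 6 members passed the threshold after adjustment. With the replicate number as a block, MDM2 and CCNG1 were among 39 windows called higher. Without the block, 2 windows were higher in Nutlin3a (0.00772% of all) and 0% were lower. At an unadjusted p under 0.05, MDM2 and CCNG1 were higher (2 of 6, against 1.27% of all windows) and COP1 was lower (1 of 6, against 1.05%). MDM2, MDM4, PPM1D and CCNG1 lay above DMSO in both Nutlin3a libraries (4 of 6, against 16.1% of all windows), and COP1 lay below (1 of 6, against 15.7%). In the replicate 2 pair MDM2 was 1.93-fold and CCNG1 2.10-fold higher in Nutlin3a, and in the replicate 1 pair 1.65-fold and 1.67-fold. The middle 90% of all windows spanned a wider range of log2 ratios in the replicate 1 pair (-0.69 to 1.75) than in the replicate 2 pair (-0.73 to 1.04). MDM2 accordingly stood at percentile 76.1 of all log2 ratios in the replicate 1 pair and at 93.8 in the replicate 2 pair.

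**Figure D3:**
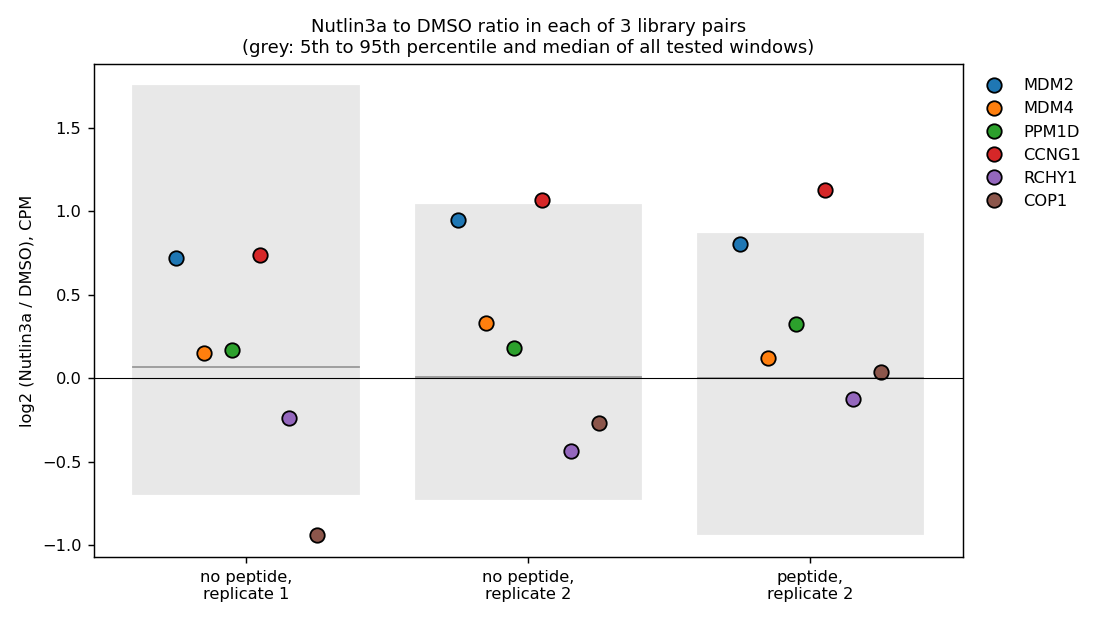
Log2 ratio of Nutlin3a over DMSO (CPM) for each gene in the 3 library pairs, over a grey band from the 5th to the 95th percentile of all tested windows with their median. MDM2 and CCNG1 lie above 0.7 in all 3 pairs, and COP1 goes with the pair: -0.94 and -0.27 without peptide, 0.036 with peptide.

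With peptide the same contrast rests on 1 library in each group, so it has no replicate check and intervals cover counting error only. MDM2 held 478 counts in Nutlin3a + peptide, against 218 counts in DMSO + peptide. After scaling it was 1.75-fold higher in Nutlin3a + peptide (95% counting interval 1.49 to 2.06). CCNG1 held 225 counts in Nutlin3a + peptide, against 82 in DMSO + peptide, and was 2.19-fold higher (1.69 to 2.85). These were the members at or past 1.5-fold (2 of 6), against 10% of all windows higher by that much and 11.4% lower. PPM1D was at 125 CPM in Nutlin3a + peptide, against 99.3 CPM in DMSO + peptide, with a log2 ratio of 0.33 (0.05 to 0.60). MDM4 had a log2 ratio of 0.12 (-0.25 to 0.49), RCHY1 of -0.12 (-0.45 to 0.21) and COP1 of 0.036 (-0.33 to 0.40), and each of these intervals included 0. The same 4 genes that were above DMSO without peptide were also above it in this pair, so 4 of 6 were higher in all 3 pairs without overlap, against 8.28% of all windows. None of the 6 was lower in all 3 pairs without overlap, against 8.03% of all windows.

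Whether the peptide altered the response to Nutlin3a was tested as the difference between both log2 fold changes, with the lone peptide libraries assumed to vary like the others. For MDM2 the fold change with peptide was 0.979 times that without it, with a 95% interval of 0.567 to 1.69. For CCNG1 it was 1.19 times (0.653 to 2.17). Neither interval shows that the responses were alike: an MDM2 fold change with peptide as low as 0.567 times that without it remains within the error. The differences on the log2 scale were -0.11 for MDM4 (-0.94 to 0.72), 0.15 for PPM1D (-0.62 to 0.92), 0.21 for RCHY1 (-0.65 to 1.08) and 0.60 for COP1 (-0.26 to 1.46). The COP1 difference was 0.34 without Nutlin3a replicate 1 and 0.93 without Nutlin3a replicate 2. None of the 6 passed the threshold or an unadjusted p of 0.05 in edgeR. Over all windows 0% passed after adjustment, and 0.413% were higher and 0.637% lower at an unadjusted p under 0.05.

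Peptide against no peptide was then compared within each treatment. Both peptide libraries were numbered replicate 2, while each group without peptide held replicates 1 and 2. These contrasts therefore also mix in the replicate number. Within replicate 2 alone, CCNG1 in DMSO had a log2 ratio of 0.21, against a fitted -0.082. For MDM4 in Nutlin3a it was 0.035, against -0.013. The other values kept their sign, with COP1 in Nutlin3a at -0.30, against -0.043. In Nutlin3a the fitted log2 fold changes ranged from -0.043 for COP1 to 0.39 for RCHY1 (95% interval -0.23 to 1.00). The RCHY1 value was 0.66 without Nutlin3a replicate 1 and 0.13 without Nutlin3a replicate 2. MDM2 was at 213 CPM in Nutlin3a + peptide, against 169 and 192 CPM in Nutlin3a, a log2 fold change of 0.23 (-0.31 to 0.78) that was -0.074 under the authors' scaling and 0.14 without Nutlin3a replicate 1. In DMSO, MDM2 was at 122 CPM with peptide, against 103 and 99.7 CPM without it, a log2 fold change of 0.26 (-0.30 to 0.83). COP1 was the member furthest from 0 in DMSO. It was at 64.2 CPM in DMSO + peptide, against 102 and 98.1 CPM in DMSO, which is a fitted level of 0.640-fold (0.419 to 0.980). The p for COP1 was 0.0410 before adjustment and 1.00 after it in edgeR. The COP1 levels of both peptide libraries, 65.8 CPM in Nutlin3a + peptide and 64.2 CPM in DMSO + peptide, lay between the 2 Nutlin3a libraries without peptide. COP1 was the only member with an unadjusted p under 0.05 in DMSO, and no member had one in Nutlin3a. Over all windows 0% passed after adjustment in either treatment. At an unadjusted p under 0.05, 0.687% were higher and 0.83% lower with peptide in DMSO, and 0.564% were higher and 1.88% lower with peptide in Nutlin3a.

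**Figure D4:**
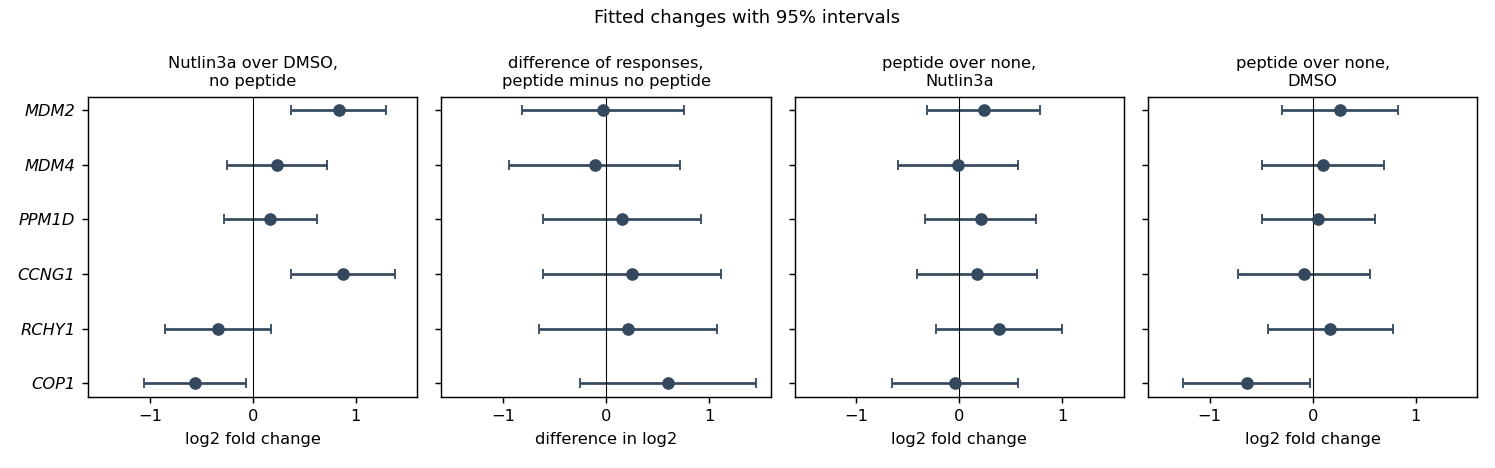
Fitted log2 fold changes with 95% intervals (bars) for the 6 genes in 4 contrasts, from 1 edgeR fit to 6 ChIP libraries. The intervals of MDM2, CCNG1 and COP1 exclude 0 for Nutlin3a over DMSO, all 6 include 0 for the difference of responses, and that of COP1 excludes 0 for the peptide in DMSO.

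Other regulators of p53 were set beside the 6 genes in 3 lists, all of whose genes were tested. Of 64 regulators, 12 had a positive log2 fold change for Nutlin3a over DMSO and 52 a negative one, with a median of -0.19, whereas 54.0% of all windows were positive and their median was 0.04. None passed the threshold in edgeR. At an unadjusted p under 0.05 none was higher, against 1.27% of all windows, and RNF34 alone was lower (1 of 64, against 1.05%). Of 31 further ligases, ligase partners and deubiquitinases, 6 were positive and the median was -0.12. RNF34, a ring finger ligase, was at 80.8 and 103 CPM in Nutlin3a, against 138 and 130 CPM in DMSO. With peptide, RNF34 was at 89.8 CPM in Nutlin3a and at 89.3 CPM in DMSO. RNF34 thus resembled COP1 in being highest in the DMSO libraries without peptide. In this list NPM1, a nucleolar protein that binds MDM2, was at -0.36, and UBE2D3, a ubiquitin-conjugating enzyme whose window overlaps UBE2D3-AS1, at -0.34. The positive log2 fold changes with the smallest p were those of the ligase MKRN1 (0.44 ± 0.31), the F-box protein FBXO11 (0.24) and USP2 (0.20), a deubiquitinase whose window overlaps USP2-AS1.

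Among 23 kinases, phosphatases and partners of cyclin G, 4 were positive, and the median was -0.23. CCNG2, the relative of CCNG1, had a log2 fold change of 0.23 ± 0.48 at a low level, against 0.88 for CCNG1. CDK2 was at 0.08 and the PP2A subunit PPP2R5C at 0.06. The kinases with the smallest p among the negative ones were PRKDC (-0.36), AURKA (-0.45) and CHEK1 (-0.32), and the windows of CDK2, PRKDC and AURKA overlap those of PMEL, MCM4 and CSTF1. Among 10 deacetylases, acetyltransferases and methyltransferases, 2 were positive, SETD7 (0.30) and SIRT1 (0.00), and the median was -0.19. KMT5A (-0.51), KDM1A (-0.38) and SMYD2 (-0.39) had the smallest p of the others. With peptide 35 of the 64 regulators were positive and the median was 0.02. With the authors' constants, 61 of the 64 regulators were positive, so the sign of these lists holds only relative to the median window. Relative to it, the regulators' median was -0.23 under both scalings. Without Nutlin3a replicate 1, 15 of the 64 were positive and their median was -0.086, or -0.074 relative to all windows, and the median was -0.13 without DMSO replicate 1. In the refit without Nutlin3a replicate 1 the median was -0.12 for the kinase list and -0.066 for the deacetylase list, and the ligase list was at -0.083.

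A list of 20 other p53 targets gives the scale of the response. Of these, 18 were positive, against 54.0% of all windows. Their median was 0.82, against a median of 0.20 for the 6 feedback genes. TP53INP1, a stress-induced protein, passed the threshold: it rose with a log2 fold change of 1.57 ± 0.23 and an adjusted p of 0.0376 in edgeR. That call was lost without DMSO replicate 2 (adjusted p 0.224 in edgeR), with the 4 libraries without peptide alone (0.212) and with the authors' constants (0.477). TP53INP1 was at 120 and 148 CPM in Nutlin3a, against 41.8 and 48.3 CPM in DMSO. CDKN1A, the p21 inhibitor of cyclin-dependent kinases, was at 248 and 356 CPM in Nutlin3a, against 106 and 125 CPM in DMSO. Its adjusted p was 0.109 in edgeR. CDKN1A passed the threshold with DESeq2 (adjusted p 0.000175), with limma-voom (0.0185) and with a replicate block in edgeR (1.0e-09). It did not pass with other scalings, with no filter or with the 4 libraries without peptide alone. The log2 fold change of CDKN1A was 1.62 without Nutlin3a replicate 1 and 1.12 without Nutlin3a replicate 2, fits with 1 Nutlin3a library without peptide. Its window overlaps that of DINOL. At an unadjusted p under 0.05, 13 of the 20 targets were higher, against 1.27% of all windows, and 0 were lower, against 1.05%. MDM2 (0.83) and CCNG1 (0.88) stood near the median of this list, while MDM4 and PPM1D stood below it.

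**Figure D5:**
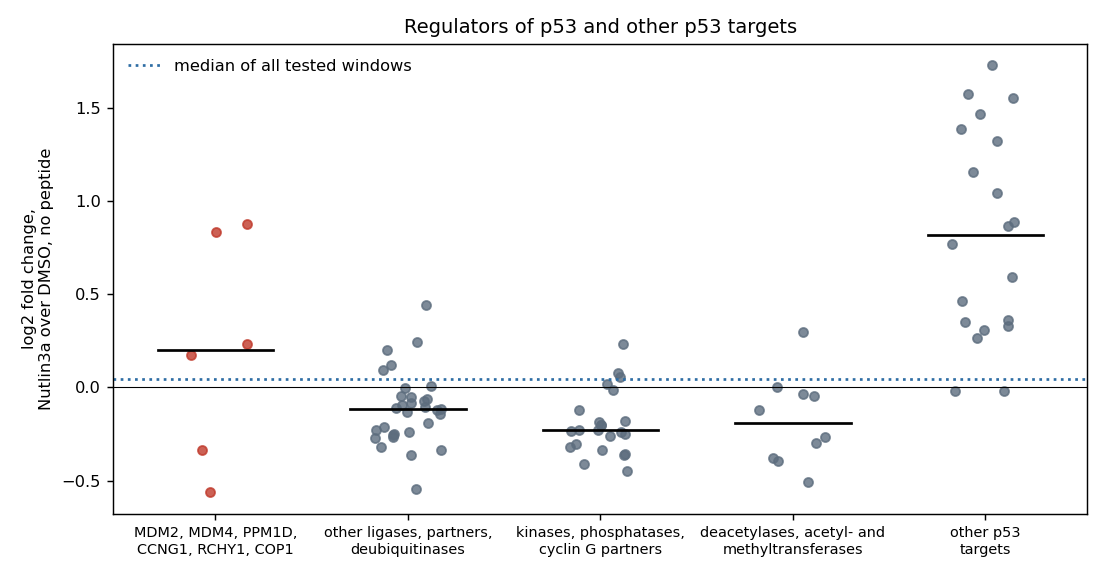
Log2 fold change of Nutlin3a over DMSO without peptide for each gene of 5 lists (points), with the median of each list as a bar and the median of all tested windows dotted. The medians are 0.20 for the 6 feedback genes, -0.12, -0.23 and -0.19 for the other regulators, and 0.82 for other p53 targets.

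The windows most like each of the members with the larger differences were found by Pearson's r of log2 CPM over the 6 ChIP libraries, among 7130 windows with a mean of at least 50 CPM. These values are descriptive, since the libraries share treatments and depth. For MDM2 the nearest were GDF15 (0.994), a secreted growth factor, FAS (0.987), the death receptor, and DRAM1 (0.986), a lysosomal membrane protein. The windows of GDF15 and FAS overlap those of MIR3189 and ACTA2. For CCNG1 the nearest were AEN (0.980), an exonuclease, HELZ (0.967), a helicase, and REV3L (0.957), the catalytic subunit of DNA polymerase zeta. The windows of HELZ and REV3L overlap those of LOC101928021 and TRAF3IP2-AS1. For COP1 they included KREMEN2 (0.997) and MPPE1 (0.994), and 223 windows reached 0.9, against 40 for MDM2 and 27 for CCNG1. Among the members, r with MDM2 was 0.919 for PPM1D, 0.906 for CCNG1, 0.742 for MDM4, -0.397 for RCHY1 and -0.615 for COP1.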

How the data were processed

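Chromatin from HCT116 cells was measured in 14 libraries, 6 Pol II Ser5 ChIP and 8 input. The authors deposited raw read counts in 1 window of 1000 bp per gene, on hg38 per the submitters' processing notes. Aligner, counter, read filters and strand handling: not given in the sources used here. They also deposited a scaled signal, per the file headers, which equalled the counts times 1 constant per ChIP library (derivation: not given in the sources used here). The signal served only as an alternative scaling.

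Groups came from the labels. Counts were tested with edgeR 4.0.16 (R 4.3.3, limma 3.58.1) by glmQLFit and glmQLFTest, with TMM factors from 0.952 to 1.02 and filterByExpr (minimum count 10). A single fit of 4 group means to 6 ChIP libraries left 2 residual degrees of freedom, and its biological coefficient of variation was 26.0%. P-values were adjusted by Benjamini-Hochberg over 25901 windows, with a threshold of 0.05. Fold changes are fitted, ratios within a pair are of TMM-scaled CPM, and percentiles of ratios used a prior count of 2. The procedure was tested on simulated data with larger changes than those of the members and no replicate effect. That test does not measure power for the members. No replicate block entered this fit. DESeq2 1.42.0, limma-voom, other scalings, no filter, fewer libraries and a replicate block were alternatives.

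The named genes are all 6 members, up to 3 genes with the smallest p per direction in each list of regulators, CDKN1A and TP53INP1, and the 3 windows most like a member, of which 1 is not reported here. The members, lists and tests were chosen with earlier results of these data known. Promoters came from RefSeq (GRCh38.p14), where 6 of 6 members matched by symbol. Depth ranged from 1290223 to 2240951 counts per ChIP library, and counting intervals cover counting error only. No genome sequence was used here, so the windows themselves were not searched for motifs.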

Additional observations from a re-analysis of the deposited data

Results flagged for a closer look

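COP1 was singled out because its Nutlin3a to DMSO ratio had the opposite sign with and without peptide. The log2 ratio was 0.036 in the pair with peptide, against -0.94 in the replicate 1 pair and -0.27 in the replicate 2 pair without it. The ratio with peptide came from 1 library in each group, and its counting interval included 0. The difference between the responses was itself tested: it was 0.60 ± 0.41 on the log2 scale, with an unadjusted p of 0.158 and an adjusted p of 1.00 in edgeR. It was 0.34 without Nutlin3a replicate 1 and 0.93 without Nutlin3a replicate 2, fits with 1 Nutlin3a library without peptide. The DMSO + peptide level of 64.2 CPM stood below 102 and 98.1 CPM in DMSO, so the denominators of these ratios differed. Within replicate 2 alone, COP1 in DMSO had a log2 ratio of -0.61 for peptide over no peptide.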

How the results depend on the processing

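Of 270 refitted log2 fold changes of the members, 249 kept direction and side of the threshold, 18 changed sign and 3 came to pass the threshold. For Nutlin3a over DMSO without peptide, the windows called higher were 2 in the reported edgeR fit, 6 with total counts, 0 with the authors' constants, 8 with DESeq2, 4 with limma-voom, 0 with the 4 libraries without peptide alone and 39 with a replicate block, and leaving out 1 library gave 0 to 88 higher and 0 to 15 lower. With the replicate block, MDM2 (log2 fold change 0.83, adjusted p 0.0143 in edgeR) and CCNG1 (0.90, adjusted p 0.0347 in edgeR) passed the threshold, and no other member did. Leaving out 1 library gave 0.75 to 0.92 for MDM2. The remaining call was that of MDM2 without Nutlin3a replicate 1, where the Nutlin3a group without peptide had 1 library and no spread of its own. With the block, 5 windows were lower for the difference of responses, 4 were higher for the peptide in DMSO and 1 was lower for the peptide in Nutlin3a. The authors' constants gave 55 lower for the peptide in Nutlin3a. Leaving out 1 library gave 0 to 34 lower for the difference, 0 to 53 lower for the peptide in DMSO, and 0 to 7 higher and 2 to 112 lower for the peptide in Nutlin3a.

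With the authors' constants, RCHY1 was at 0.24 for Nutlin3a over DMSO. For the peptide in DMSO those constants gave -0.14 for MDM4, -0.18 for PPM1D and -0.071 for RCHY1, and for the peptide in Nutlin3a -0.074 for MDM2, -0.13 for PPM1D, -0.19 for CCNG1 and -0.019 for RCHY1. The replicate block gave 0.11 for CCNG1 for the peptide in DMSO and 0.079 for MDM4 for the peptide in Nutlin3a. Leaving out 1 library gave, for the difference of responses, -0.12 to 0.050 for MDM2, -0.26 to 0.012 for MDM4, -0.043 to 0.48 for CCNG1, -0.048 to 0.49 for RCHY1 and 0.34 to 0.93 for COP1. For the peptide in DMSO it gave -0.023 to 0.25 for MDM4 and -0.31 to 0.21 for CCNG1, and for the peptide in Nutlin3a -0.076 to 0.029 for MDM4 and -0.31 to 0.29 for COP1. With the authors' constants the log2 ratios with peptide moved to 1.22 for MDM2, 0.53 for MDM4, 0.74 for PPM1D, 1.54 for CCNG1, 0.29 for RCHY1 and 0.45 for COP1. With inputs of the same condition the ratio of ChIP to input moved to 3.52 for MDM2 and 1.85 for RCHY1. The matched input of Nutlin3a replicate 1 held only 4 reads in the MDM2 window. That of DMSO replicate 1 held 5 reads in the RCHY1 window. The authors' constants put the median window at 0.53, against 0.04 with TMM, and the cause of the other changes was not tested.

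Replicate numbers were checked for pairing: deviations of same-numbered libraries from their group means correlated at 0.454 across windows. Same-numbered libraries thus shared part of their deviations. With 2 pairs and no label that ties a number to a shared culture, the source of this was not tested. Depth limits the inputs most, at 3 to 36 reads per member window, and each peptide group has 1 library.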
